A study of Mus musculus with 6 samples.

Results

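The genes of autophagy described here are 34 mouse genes, chosen by name from a table of 21958 gene rows, and 34 of 34 were found. They are kept in 2 sets, the core machinery of 29 genes that builds the autophagosome and 5 cargo receptors that tie selected cargo to it. The libraries are bulk RNA-seq of RAW264.7 cells, a mouse macrophage line, all given LPS, the bacterial outer membrane lipid that triggers inflammatory signalling in macrophages. In 3 libraries the cells had LPS alone, and in the other 3 they were also co-cultured with BMSCs, bone marrow stromal cells. The series asks how these cells alter transcription in LPS-stimulated macrophages, as part of work on scaffolds that carry BMSCs and the growth factor bFGF. The labels of these 6 libraries name no bFGF and no scaffold, and they give neither the dose and duration of LPS nor the species, number or contact of the BMSCs. No library without LPS was analysed here, so each difference below is between co-culture and no co-culture on top of LPS. The title of LPS replicate 3 names the line RAW264.9 against RAW264.7 in its cell line tag; that library stays with the LPS group here. The replicates are called biological, but separate cultures are not described, so p-values measure the spread between these samples.

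Macroautophagy encloses cytoplasm in a new membrane sac, the autophagosome, and delivers it to the lysosome. The ULK kinase complex starts the process and a class III phosphatidylinositol 3-kinase complex marks the forming membrane with the lipid PI3P. ATG9, ATG2 and the WIPI proteins then bring lipid and further factors, and 2 linked conjugation systems attach small ubiquitin-like proteins of the ATG8 family (the LC3 and GABARAP proteins) to the membrane. Cargo receptors such as p62 bind ubiquitin-tagged cargo on one side and ATG8 proteins on the other. In macrophages the same machinery also takes part in clearing bacteria, and parts of it serve in LC3-associated phagocytosis. Messenger RNA levels are measured here, and neither autophagosome number nor flux to the lysosome was.

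The 4 well-counted genes of the ATG8 family and the receptor set that rose by at least 1.5-fold are Sqstm1, which encodes p62, Map1lc3b, Gabarap and Gabarapl1. Their promoter windows are shown because these genes rose together and hold the largest changes among the well-counted ATG8 and receptor genes. That ranking is from the fit without correction for gene length and GC. With the correction, the receptor gene Tax1bp1 had a log2 fold change of 0.90, above Sqstm1 (0.69), Gabarap (0.67) and Gabarapl1 (0.30). Each window runs from 250 bases before to 50 bases after the annotated start (RefSeq, GRCm38.p6), written in the direction of transcription. Capitals mark a match to TGACNNNGC, the core of the antioxidant response element, on either strand.
Sqstm1: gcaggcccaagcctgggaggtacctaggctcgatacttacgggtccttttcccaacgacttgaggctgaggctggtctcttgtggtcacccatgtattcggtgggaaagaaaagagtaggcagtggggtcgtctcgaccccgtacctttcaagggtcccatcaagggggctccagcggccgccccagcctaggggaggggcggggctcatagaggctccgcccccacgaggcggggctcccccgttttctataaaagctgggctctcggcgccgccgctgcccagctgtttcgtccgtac
Map1lc3b: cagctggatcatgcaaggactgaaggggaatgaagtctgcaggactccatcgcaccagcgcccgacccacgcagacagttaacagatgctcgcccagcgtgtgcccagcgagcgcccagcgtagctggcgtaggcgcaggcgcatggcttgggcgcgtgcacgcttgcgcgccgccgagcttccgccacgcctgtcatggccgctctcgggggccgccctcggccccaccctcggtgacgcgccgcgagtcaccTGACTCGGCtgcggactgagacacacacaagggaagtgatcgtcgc
Gabarap: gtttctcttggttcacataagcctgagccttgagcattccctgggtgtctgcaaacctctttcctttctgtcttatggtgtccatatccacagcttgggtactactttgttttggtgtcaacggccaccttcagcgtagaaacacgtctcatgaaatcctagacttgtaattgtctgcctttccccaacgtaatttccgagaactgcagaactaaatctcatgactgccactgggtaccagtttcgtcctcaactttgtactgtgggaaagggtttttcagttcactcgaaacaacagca
Gabarapl1: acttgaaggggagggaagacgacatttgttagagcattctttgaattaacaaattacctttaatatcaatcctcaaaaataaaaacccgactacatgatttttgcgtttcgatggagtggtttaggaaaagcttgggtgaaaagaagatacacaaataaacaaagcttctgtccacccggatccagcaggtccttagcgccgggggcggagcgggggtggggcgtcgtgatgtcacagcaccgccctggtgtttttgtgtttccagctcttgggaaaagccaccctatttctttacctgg
The windows lie at chr11:50210771-50211070 on the minus strand for Sqstm1 and, on the plus strand, at chr8:121590188-121590487 for Map1lc3b, chr11:69991120-69991419 for Gabarap and chr6:129532942-129533241 for Gabarapl1. The first base of the Gabarap gene is at chr11:69991143, so most of its window lies inside the gene and little of it upstream. Of 4 motifs searched on both strands, the window of Map1lc3b held 1 match, TGACTCGGC, just after the start, and the other windows held none.

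The same search was made over the windows of the 28 members that matched the promoter table by symbol. CACGTG, the palindromic E-box that TFEB and its relatives bind, was in the windows of 5 of the 28, namely Atg3, Atg5, Atg7, Atg14 and Rubcn, and in those of 8.09% of all 27025 genes with a window. The matches of Atg7 and Rubcn lay in windows of starts inside the gene, away from the gene's first base. The other Rubcn window, at the gene's first base, held no match. TGACNNNGC was in the windows of 5 (Atg13, Map1lc3b, Tax1bp1, Ulk2 and Vmp1) and of 14.0% of all genes. TGATGCAA, a composite element bound by ATF4 and CHOP, and TGANTCA, which covers the AP-1 site, were in none of the 28 and in 1.03% and 8.97% of all genes. A site can match both TGACNNNGC and TGANTCA, since their letters overlap, and a match is a description of letters only. The 5 genes with CACGTG comprised 2 that rose (Atg3 and Atg7), 1 that fell (Rubcn) and 2 that were not called (Atg5 and Atg14).

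The libraries held 17716460 to 22539884 counts each, and 3 counts, taken as the floor of detection, were 0.133 to 0.169 CPM (counts scaled to library size). Intervals and floors of this kind cover counting error only. LPS libraries differed from each other by 1.68 to 2.07 times sampling noise (chi-square per degree of freedom) and co-culture libraries by 4.98 to 25.6 times, with co-culture replicate 1 farthest from the other 2. All 9 macrophage markers were detected in every library, with a summed level of 16644 to 17067 CPM in LPS and 25816 to 28615 CPM in co-culture. Lyz2 and Cd14 made up most of that sum. By the edgeR test described below, 5 of the 9 were higher, 3 were not called and 1, Ptprc, was lower. The 14 stromal markers summed to 9.71 to 11.3 CPM in LPS and 10.4 to 12.3 CPM in co-culture, with 6 or 7 of the 14 at 0 in each library and Col1a2, Col3a1, Thy1, Postn and Cxcl12 at 0 in all 6. The fold change also ran with gene length, with a median log2 fold change of 0.69 over genes shorter than 2 kb and -0.57 over genes longer than 8 kb, so corrected values, from a fit in which each library had its own length and GC trend taken out, are given for the members called and for the other genes named. Whether that trend is technical was not tested. The macrophage markers Ptprc, Lyz2 and Cd14 are named after their values were seen. Ptprc went from 305 to 161 CPM, a log2 fold change of -0.93 that was 0.04 after the correction. Lyz2 and Cd14 rose by 0.71 and 0.88, and by 0.13 and 0.26 after the correction.

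Transcripts of the core machinery were higher with co-culture more often than lower, and of its 8 rises of at least 1.5-fold, 4 were ATG8 genes, 3 were genes of lipid supply and PI3P binding and 1 was the protease gene Atg4b. Of the 33 members that passed the filter on low counts, 17 were higher, 4 were lower and 12 were not called by edgeR's quasi-likelihood test at a Benjamini-Hochberg adjusted p of 0.05. Over all 11103 genes tested the test called 75.5%, with 37.5% higher and 38.0% lower. At least 1.5-fold, 9 members were higher and 0 were lower, where 20.8% of all genes were higher and 22.7% lower, 43.4% in either direction. The median log2 fold change was 0.19 over the 33 members and 0.00 over all genes. After correction for length and GC, 21 members were higher, 3 lower and 9 not called, against 35.1% higher and 36.1% lower over all genes, and the members' median was 0.45. The 2 groups did not overlap in 24 members, or 72.7%, against 80.2% of all genes. In bulk RNA, fewer cells of a type and less RNA per cell cannot be told apart.

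**Figure D1:**
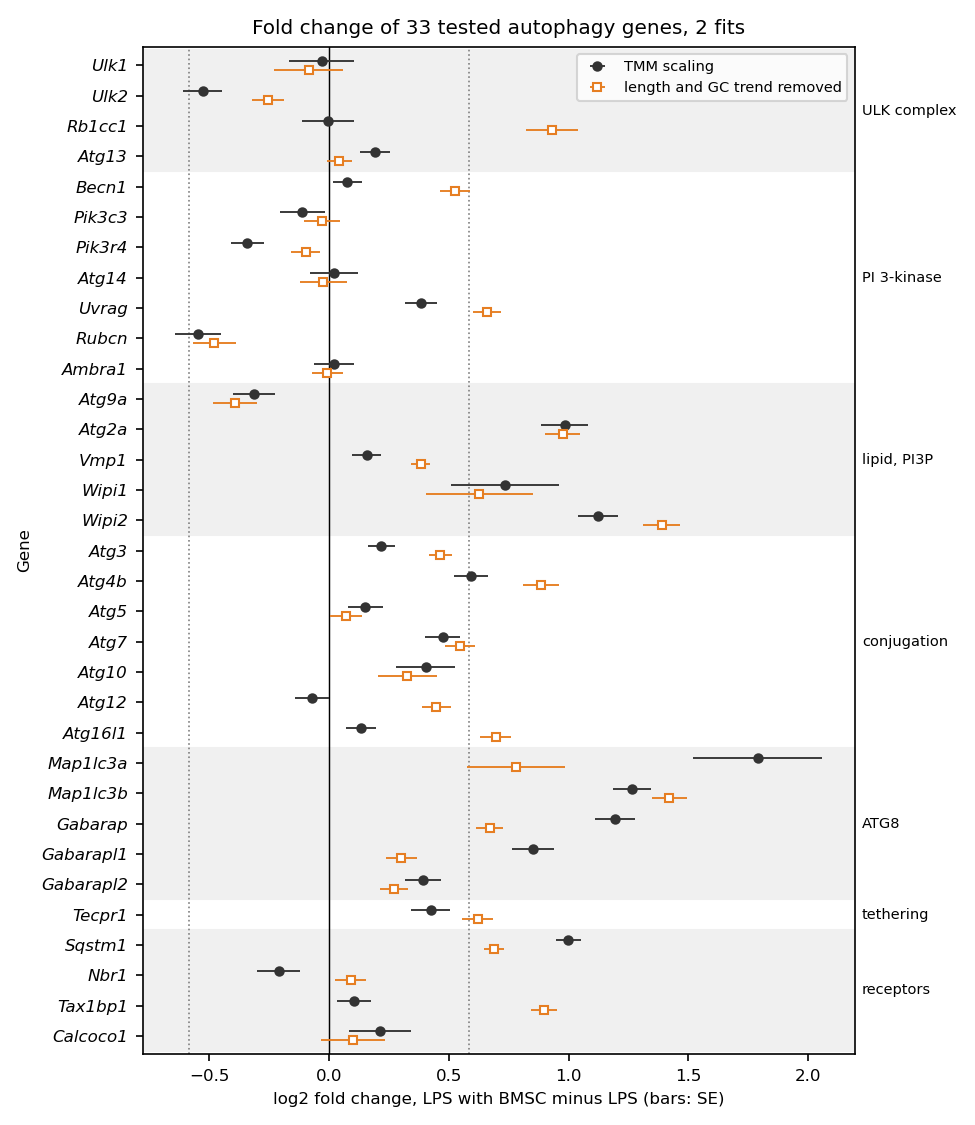
Log2 fold change (x axis, LPS with BMSC minus LPS) of the 33 tested genes (y axis), grouped by role, from the TMM-scaled fit (filled circles) and the fit corrected for length and GC (open squares); bars are SE and dotted lines mark 1.5-fold. The 5 ATG8 genes lie right of 0 in both fits, from 0.39 to 1.79 under TMM, and Rb1cc1 and Tax1bp1 move from -0.01 and 0.10 to 0.93 and 0.90.

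In the core machinery, 16 of 29 genes were higher, 4 were lower and 9 were not called. The 4 lower ones were Ulk2, Pik3r4, Rubcn and Atg9a, each by less than 1.5-fold. In a fit with the length trend alone removed, only Ulk2 of the 4 was still called lower. In the receptors, 1 of the 4 tested was higher, 0 were lower and 3 were not called. The core median was 0.19 and the receptor median 0.16. Taken by role, 5 of 5 ATG8 genes were higher, 4 of 5 genes of lipid supply and PI3P binding were higher and 1 lower, and 4 of 7 conjugation genes were higher. In the ULK complex 1 of 4 was higher and 1 lower, and among the PI 3-kinase genes 1 of 7 was higher and 2 lower.

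**Figure D2:**
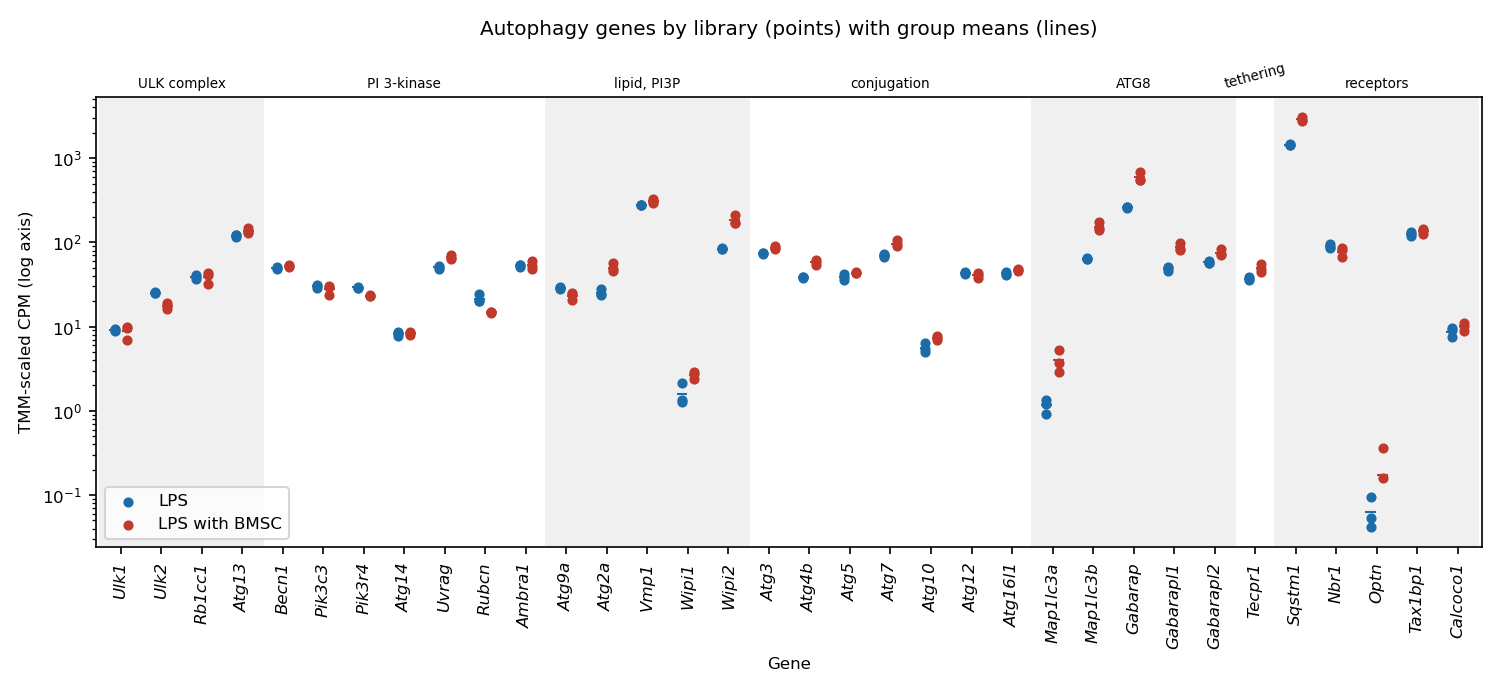
TMM-scaled CPM (y axis, log) of the 34 genes (x axis) in each library; points are libraries, short lines group means, blue LPS and red LPS with BMSC. A value of 0, as for Optn in co-culture replicate 1, cannot be drawn on the log axis. Sqstm1 is highest, from 1423 to 1472 CPM in LPS and 2794 to 3043 CPM in co-culture.

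The ATG8 genes were the group with the largest median rise among the roles with more than 1 gene, at a log2 fold change of 1.19, and 0.67 after the correction. The genes of lipid supply and PI3P binding came next at 0.73, and were close to the ATG8 genes after the correction, at 0.63. Map1lc3b, which encodes LC3B, the protein most used to mark autophagosomes, read 65.0, 64.4 and 62.8 CPM in LPS and 173, 147 and 142 CPM in co-culture. The lowest co-culture library stood above every LPS library. Its level was 2.40-fold higher, a log2 fold change of 1.27 (SE 0.08) with an adjusted p of 1e-06 in edgeR's test. Corrected for length and GC, the log2 fold change was 1.42. Map1lc3b has a length of 7517 bases in the table, in the range where the median of all genes was -0.16.

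Gabarap encodes the founding member of the GABARAP branch, which works late in autophagosome formation. It read 258, 263 and 260.4 CPM in LPS and 682, 551 and 555 CPM in co-culture. The LPS libraries lay within a few CPM of each other and the co-culture libraries were all above them, replicate 1 the highest. The rise was 2.29-fold (log2 1.19, SE 0.08, adjusted p 1.73e-06 by edgeR). After the correction it was 0.67 on the log2 scale. Gabarap is short, at 1844 bases, and the median of all genes shorter than 2 kb was 0.69.

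Gabarapl1 encodes GEC1, a close GABARAP relative. It read 49.3, 45.6 and 50.4 CPM in LPS and 98.8, 80.6 and 82.7 CPM in co-culture, with no overlap. The rise was 1.80-fold (log2 0.85, SE 0.09, adjusted p 1.26e-05 by edgeR), and 0.30 on the log2 scale after the correction. Gabarapl2, which encodes GATE-16, moved least of the family. Its values were 59.5, 57.2 and 56.6 CPM in LPS and 71.5, 72.1 and 83.9 CPM in co-culture, and co-culture replicate 3 was the highest. The rise was 1.31-fold, log2 0.39 (SE 0.07, adjusted p 0.000789 by edgeR). It was 0.27 after the correction for length and GC, and 0.02 and no longer called when the length trend alone was removed.

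Map1lc3a, the LC3A gene, was low, at 1.22, 1.33 and 0.919 CPM in LPS and 5.33, 3.69 and 2.88 CPM in co-culture. These rest on 22 to 28 counts per library in LPS and 54 to 107 in co-culture. The co-culture libraries spread more than the LPS ones and all stood above them. The log2 fold change was 1.79 (SE 0.27, adjusted p 0.000177 by edgeR), or 3.46-fold, and 0.78 after the correction. Co-culture replicate 1 was the highest library for Map1lc3a, Map1lc3b, Gabarap and Gabarapl1, and its median deviation from the group mean over the 5 genes was 0.18 on the log2 scale, against -0.07 and -0.10 in replicates 2 and 3. The 5 genes were called higher when any single library was left out.

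Levels of different genes can be set side by side only per length, as FPKM (counts scaled to gene length and library size). The FPKM of the 5 genes summed to 212.3 ± 0.219 in LPS and 396.8 ± 34.2 in co-culture (SD, n = 3), a ratio of 1.87 on the scale of the deposited FPKM, which is set to library totals. Gabarap made up most of the sum in both groups, at 70.1 to 71.5% in LPS and 75.3 to 77.5% in co-culture. Gabarapl2 went from 12.2 to 12.8% in LPS down to 6.44 to 9.03% in co-culture, and Gabarapl1 from 11.3 to 12.5% to 10.2 to 10.3%. Map1lc3b was 4.19 to 4.33% of the sum in LPS and 4.73 to 4.97% in co-culture, and Map1lc3a was 0.390 to 0.565% and 0.610 to 0.946%. These shares are descriptions, and they inherit the length trend of the libraries and the table's single length per gene.

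**Figure D3:**
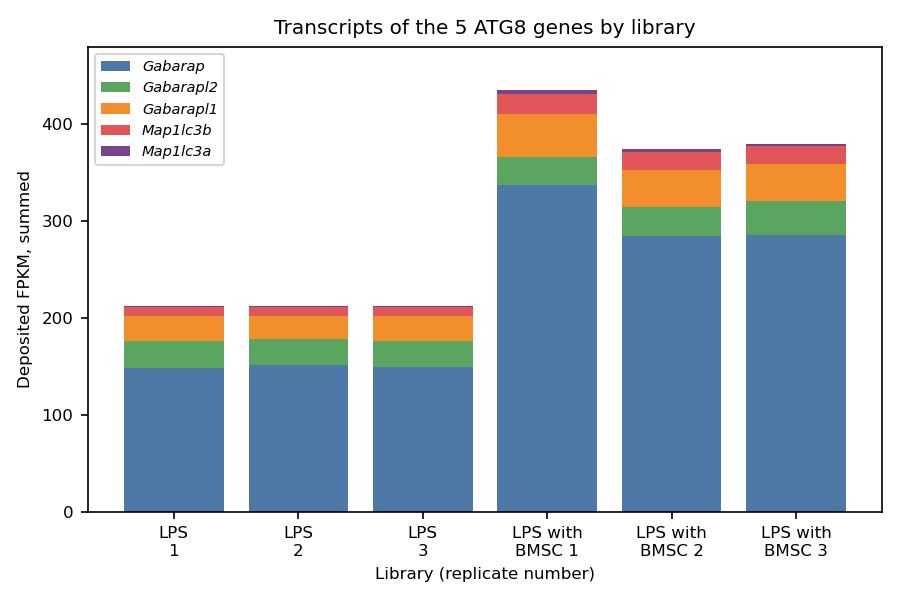
Summed FPKM (y axis, linear from 0) of the 5 ATG8 genes in each library (x axis), stacked by gene as the legend colours show. The 3 LPS bars reach about 212.3 and the co-culture bars 374 to 436, and Gabarap is the largest block in all 6.

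The lipid-supply and PI3P-binding genes held 3 of the rises of at least 1.5-fold. Wipi2 encodes the PI3P reader that recruits the ATG16L1 complex to the forming membrane. Its values were 84.7, 83.7 and 83.4 CPM in LPS and 209, 171 and 169 CPM in co-culture, without overlap. It rose 2.18-fold (log2 1.12, SE 0.08, adjusted p 2.25e-06 by edgeR), and 1.39 on the log2 scale after the correction. Atg2a, which encodes a lipid transfer protein that bridges the endoplasmic reticulum and the growing membrane, read 27.7, 23.9 and 24.6 CPM in LPS and 56.9, 47.9 and 45.6 CPM in co-culture. The groups stood well apart, and the rise was 1.98-fold (log2 0.98, SE 0.10, adjusted p 1.17e-05 by edgeR), with a corrected log2 value of 0.97.

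Wipi1, a second PI3P-binding protein gene, was near the bottom of the range at 1.27, 1.33 and 2.13 CPM in LPS and 2.39, 2.92 and 2.72 CPM in co-culture. LPS replicate 3 lay close to the lowest co-culture library. The log2 fold change was 0.73 (SE 0.23, adjusted p 0.0133 by edgeR), a 1.66-fold rise, and 0.63 after the correction. The call was lost without LPS replicate 1, at 0.61 with an adjusted p of 0.0546, and without LPS replicate 2, at 0.62 with an adjusted p of 0.0564. Vmp1, a lipid scramblase of the endoplasmic reticulum, was 276 ± 1.36 CPM in LPS and 308 ± 20.7 CPM in co-culture (SD, n = 3). Its log2 fold change of 0.16 (adjusted p 0.0347 by edgeR) was 0.38 after the correction and turned to -0.02 when counts were scaled to library totals, and the call was also lost without each of 5 of the 6 libraries, at adjusted p of 0.0589 to 0.114. Atg9a, which encodes a membrane protein whose vesicles seed the autophagosome, fell by 0.31 on the log2 scale, from 28.9 ± 0.857 to 23.3 ± 2.43 CPM (adjusted p 0.00884 by edgeR), and its corrected value was -0.39. With the length trend alone removed, Atg9a was no longer called (adjusted p 0.195 by edgeR).

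Among the conjugation genes, Atg4b rose most. It encodes the protease that trims ATG8 proteins before conjugation and cuts them off the membrane afterwards. Its values were 38.7, 39.2 and 37.4 CPM in LPS and 61.7, 58.6 and 53.3 CPM in co-culture, with no overlap, and the rise was 1.51-fold (log2 0.59, SE 0.07, adjusted p 3.77e-05 by edgeR). Its corrected log2 fold change was 0.89. Over the 16 alternatives it ran from 0.35, under 1.5-fold, to 1.00. Atg7, the E1-like enzyme that activates both ATG8 proteins and ATG12, rose 1.39-fold, from 69.7 ± 2.73 to 96.9 ± 8.58 CPM (adjusted p 0.0002 by edgeR), with a log2 value of 0.47 and 0.55 corrected. Atg3 and Atg10 encode the E2-like enzymes for ATG8 proteins and for ATG12, and both rose less, by 1.16-fold and 1.32-fold, with corrected log2 values of 0.46 and 0.33. Scaled to library totals neither was called, at log2 fold changes of 0.04 and 0.22. Atg10 was also not called without LPS replicate 3, at 0.33 with an adjusted p of 0.0666.

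The ATG12, ATG5 and ATG16L1 proteins form the complex that places ATG8 proteins on the membrane, and none of their genes was called. Atg12 was 43.0 ± 1.24 CPM in LPS and 40.9 ± 2.90 CPM in co-culture. Atg5 was 39.2 ± 3.12 and 43.6 ± 0.825 CPM, and Atg16l1 was 42.9 ± 1.67 and 47.1 ± 1.27 CPM. In the corrected fit, Atg12 and Atg16l1 were called higher, at log2 fold changes of 0.45 and 0.70. Without co-culture replicate 1, Atg5 was called at 0.16 (adjusted p 0.0355) and Atg16l1 at 0.15 (adjusted p 0.0238). With the length trend alone removed, Atg5 was called lower, at -0.22.

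Among the 4 listed genes of the ULK complex, which starts autophagy, 1 fell, 1 rose and 2 were not called. In the ULK complex, Ulk2, one of its kinases, fell from 26.0, 24.9 and 25.1 CPM in LPS to 16.2, 17.7 and 18.8 CPM in co-culture. The groups did not overlap, and the fall was 1.44-fold (log2 -0.53, SE 0.08, adjusted p 0.000194 by edgeR), with a corrected log2 value of -0.26. Ulk1, the other kinase, was 9.09 ± 0.226 CPM in LPS and 8.91 ± 1.64 CPM in co-culture, with a log2 difference of -0.03 (SE 0.14) that did not pass the test. Rb1cc1, which encodes the scaffold FIP200, was 39.0 ± 1.79 and 38.8 ± 6.10 CPM, and at 14690 bases it is the longest member. In the corrected fit it was called higher at a log2 fold change of 0.93, so its direction depends on that correction. Atg13, the adaptor of the complex, was higher by 1.14-fold (adjusted p 0.0201 by edgeR). It was not called without each LPS library in turn, at adjusted p of 0.0548 to 0.0974, nor after the correction (log2 0.04, adjusted p 0.461), and read 0.01 on the log2 scale with library totals.

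In the class III PI 3-kinase group, the catalytic subunit gene Pik3c3 and the scaffold gene Becn1 were not called. Pik3c3 was 30.1 ± 1.14 CPM in LPS and 27.8 ± 3.33 CPM in co-culture, and Becn1 was 49.6 ± 1.36 and 52.3 ± 1.53 CPM. After correction Becn1 was called at a log2 fold change of 0.53. Scaled to library totals, Pik3c3 was called lower at -0.29 (adjusted p 0.0288 by edgeR). It was also called lower in both limma settings, at -0.26 and -0.29. Pik3r4, the regulatory subunit VPS15, fell by 0.34 on the log2 scale (adjusted p 0.00108 by edgeR), from 29.3 ± 0.562 to 23.1 ± 0.327 CPM. Its corrected value was -0.10 (adjusted p 0.164), and with the length trend alone removed it was 0.14.

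Other members of the group bind or regulate the kinase. Atg14 directs the kinase to the start of the autophagosome, and it was 8.27 ± 0.455 CPM in LPS and 8.40 ± 0.371 CPM in co-culture. Uvrag directs it to endosomes and later steps. Its values were 48.0, 53.1 and 51.7 CPM in LPS and 63.4, 65.7 and 70.3 CPM in co-culture, a rise of 1.30-fold (log2 0.38, adjusted p 0.000508 by edgeR) with no overlap, and 0.66 on the log2 scale after the correction. Rubcn encodes Rubicon, which holds back the UVRAG form of the kinase and is needed for LC3-associated phagocytosis. It read 20.3, 20.0 and 24.4 CPM in LPS and 14.7, 15.1 and 14.6 CPM in co-culture, a 1.46-fold fall (log2 -0.55, SE 0.10, adjusted p 0.000522 by edgeR), again with no overlap and a corrected value of -0.48. With the length trend alone removed, Rubcn was at -0.20 and no longer called (adjusted p 0.0864 by edgeR). Ambra1, a regulator of Beclin 1 and ULK1, was 52.8 ± 0.917 and 53.5 ± 6.15 CPM and was not called. Tecpr1, which tethers autophagosomes to lysosomes, rose 1.34-fold, from 37.0 ± 1.45 to 49.7 ± 5.05 CPM (log2 0.42, adjusted p 0.00103 by edgeR), and its corrected log2 value was 0.62.

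Of the cargo receptors, Sqstm1 rose and was the most abundant member of all 34. Its product p62 gathers ubiquitinated protein and also holds KEAP1, so that it links autophagy to the NRF2 pathway. The values were 1434, 1472 and 1423 CPM in LPS and 3043, 2794 and 2817 CPM in co-culture. The groups were far apart next to their spread, and the rise was 2.00-fold (log2 1.00, SE 0.05, adjusted p 4.37e-07 by edgeR), and 0.69 on the log2 scale after the correction. By mean FPKM, Sqstm1 was at 457 ± 8.52 in LPS and 807 ± 18.6 in co-culture (SD, n = 3), which placed it at rank 64 and rank 53 among all genes. Gabarap, at rank 181 in co-culture, was the next member, then Vmp1 at 76.0 ± 0.455 and 74.9 ± 6.39 FPKM. In LPS the next in order were Atg13 at 29.1 ± 0.800, Gabarapl2 at 26.4 ± 0.722, Gabarapl1 at 25.6 ± 1.30 and Atg3 at 25.1 ± 0.377 FPKM, and the range of Gabarapl1 overlapped those of Gabarapl2 and Atg3, which did not overlap each other. The 2 lowest members were Wipi1, at 0.381 ± 0.115 and 0.571 ± 0.0694 FPKM, and Optn.

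The other receptors gave no call. Nbr1, which encodes a p62 relative that binds ubiquitin, was 88.3, 85.7 and 95.1 CPM in LPS and 67.1, 80.2 and 85.4 CPM in co-culture. The groups just failed to overlap, and its log2 difference of -0.21 (SE 0.09) had an adjusted p of 0.0512 by edgeR. The adjusted p was 0.0107 without co-culture replicate 3, and 0.0464 in DESeq2. After the correction for length and GC, the sign of Nbr1 turned, at a log2 value of 0.09 that was not called (adjusted p 0.228 by edgeR). Tax1bp1, a receptor that also limits NF-kB signalling, was 126 ± 7.04 CPM in LPS and 135 ± 10.2 CPM in co-culture. Calcoco1, a receptor for endoplasmic reticulum, was 8.74 ± 1.15 and 10.1 ± 1.13 CPM. Without co-culture replicate 1, Tax1bp1 and Calcoco1 were called higher at 0.16 (adjusted p 0.00615) and 0.31 (adjusted p 0.0247). Tax1bp1, at 9991 bases, was also called after the correction, at 0.90. Optn, the optineurin gene, had 1, 2 and 1 counts in LPS and 0, 7 and 3 in co-culture, mostly at or under the floor, so no fold is given and it was not tested.

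**Figure D4:**
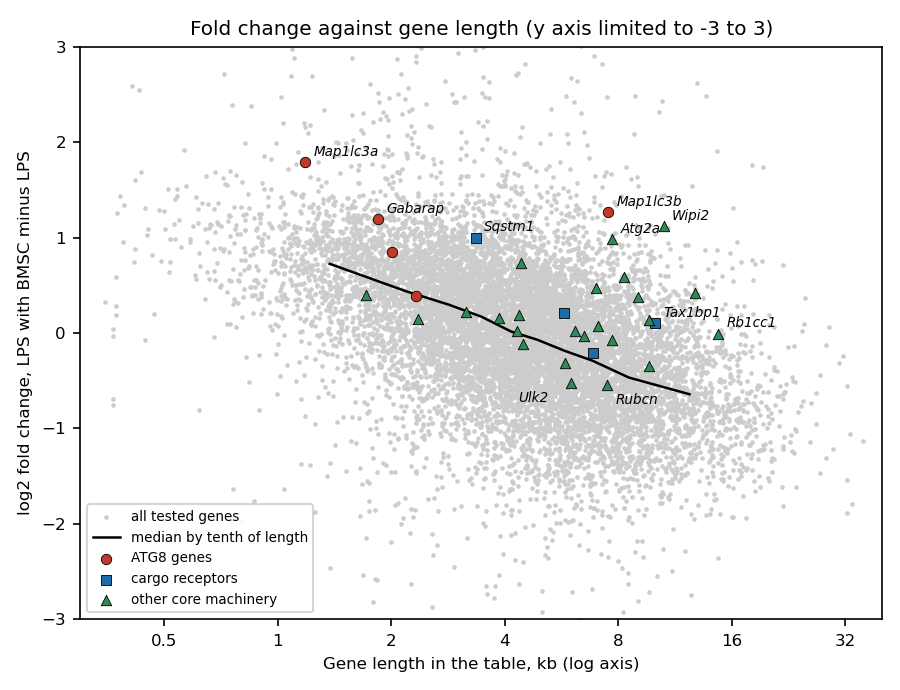
Log2 fold change (y axis, limited range) against gene length in kb (x axis, log) for all tested genes (grey) and the members (coloured by group), with the median of all genes by length class as a black line. Members of over 8 kb have a median of 0.26 where all genes of that length have -0.57, and the 3 members shorter than 2 kb have 1.19 where all have 0.69.

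Length bears on how the members read. In genes longer than 8 kb the 8 members had a median log2 fold change of 0.26 and all tested genes -0.57. From 4 to 8 kb the 16 members had 0.02 and all genes -0.16. From 2 to 4 kb the 6 members had 0.31 and all genes 0.26. Over the 33 members the fold change was correlated with log2 length at Pearson r = -0.394 and Spearman rho = -0.250, and over all genes at -0.445 and -0.497. These are across genes that share the same 6 libraries, and genes are not independent replicates. In the corrected fit 13 members were at least 1.5-fold higher and 0 lower, against 14.7% and 15.5% of all genes. Compared with the 9 of the uncorrected fit, Gabarapl1 was not among them, while Rb1cc1, Uvrag, Atg16l1, Tecpr1 and Tax1bp1 were added.

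Other genes of the autophagy pathway rose and fell in shares to be read against the 37.5% higher and 38.0% lower of all genes tested. After the correction the shares of all genes were 35.1% higher and 36.1% lower. Of 14 other initiation and conjugation genes, 5 rose and 5 fell, and 8 rose and 4 fell after the correction. Atg101, which stabilises ATG13 in the ULK complex, rose 2.61-fold, from 13.1 ± 0.606 to 34.1 ± 4.19 CPM, a log2 fold change of 1.38 that was 0.60 after the correction. Atg2b, the second ATG2 gene, fell 1.66-fold, from 65.4 ± 2.23 to 39.5 ± 4.45 CPM (log2 -0.73, corrected -0.32), while Atg2a rose. Atg4c, a further ATG4 protease gene, fell 1.76-fold (log2 -0.81, corrected -0.68). Sh3glb1, which binds the UVRAG complex, rose 1.22-fold (log2 0.29, corrected 0.84).

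Of 15 other selective receptors, 12 were tested, and 5 rose and 4 fell, or 6 and 4 after the correction. Ncoa4, the receptor for ferritin, fell 3.75-fold, from 44.8 ± 1.42 to 12.0 ± 3.18 CPM (log2 -1.90, corrected -1.36). Wdfy3, which encodes the aggregate adaptor ALFY, fell 1.85-fold, from 289.5 ± 6.76 to 157 ± 7.51 CPM (log2 -0.88, corrected -0.49). Bnip3l, a receptor for mitochondria, rose 1.64-fold (log2 0.71, corrected 1.00). Tex264, a receptor for endoplasmic reticulum, rose 2.01-fold, with a corrected log2 value of 0.50. Calcoco2 had 0 counts in all 6 libraries, which allows up to 3 counts each.

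Of 13 genes for fusion of autophagosomes with lysosomes, 3 rose and 6 fell, or 2 and 5 after the correction. Vamp8, the lysosomal SNARE, rose 2.12-fold, from 82.9 ± 1.15 to 176 ± 21.6 CPM (log2 1.08, corrected 0.65). Stx17, the autophagosomal SNARE that pairs with it, fell 1.38-fold, from 33.2 ± 0.908 to 24.0 ± 0.930 CPM, and its log2 value was -0.04 (adjusted p 0.626) after the correction. Vps39, of the HOPS tethering complex, and Plekhm1, its adaptor, fell 1.45-fold and 1.36-fold, at log2 values of -0.54 and -0.45, and -0.28 and -0.51 corrected.

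Of 16 regulators, 15 were tested, and 6 rose and 6 fell, or 6 and 4 after the correction. Mitf, a TFEB relative that binds the E-box of lysosomal genes, fell 2.49-fold, from 105 ± 4.92 to 42.2 ± 3.70 CPM (log2 -1.32, corrected -0.86). Atf4 and Ddit3, the stress factors ATF4 and CHOP, rose 1.81-fold and 3.86-fold, to 482 ± 28.0 and 47.8 ± 10.5 CPM. Their log2 values of 0.86 and 1.95 were 0.33 and 1.65 after the correction, which put Atf4 under 1.5-fold. Prkag1, an AMPK subunit, rose 2.37-fold from 4.19 ± 0.369 CPM (log2 1.25, corrected 0.74). Tfeb, named here after its values were seen, was 4.64 ± 0.564 and 4.50 ± 1.03 CPM and was not called (log2 -0.03, corrected -0.22).

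LC3-associated phagocytosis needs the NADPH oxidase, and 4 of its 6 genes rose and 1 fell, or 3 and 2 after the correction. Cybb, the catalytic subunit, fell 1.64-fold, from 2160.4 ± 20.4 to 1315 ± 70.1 CPM (log2 -0.72, corrected -0.25). Ncf4, a cytosolic subunit, rose 1.90-fold (log2 0.93, corrected 0.31). Cyba, the partner of Cybb in the membrane, rose 2.16-fold, but its log2 value was 0.08 (adjusted p 0.112) after the correction.

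**Figure D5:**
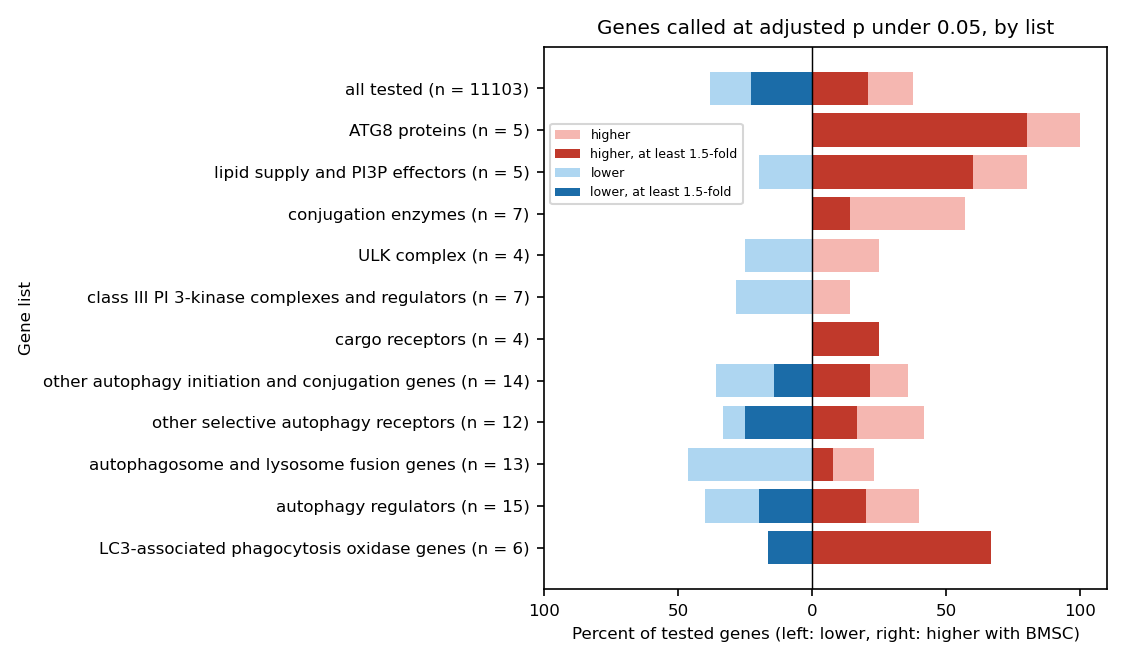
Percent of tested genes called higher (right, red) and lower (left, blue) with co-culture for all genes and each list (y axis, number tested in brackets); darker parts are changes of at least 1.5-fold. In the TMM-scaled fit drawn here, all 5 ATG8 genes are higher. The lists for other receptors, fusion and regulators hold 5, 3 and 6 higher and 4, 6 and 6 lower genes.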

How the data were processed

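Poly(A)-selected RNA-seq libraries of 6 samples were used, 3 per group by title. The authors deposited whole-number read counts and FPKM per gene. Alignment used HISAT2 2.0.5 with build mm10, per the submitters' processing notes. No counting tool, annotation or strand setting is given in the sources used here, so reads of overlapping genes cannot be told apart. The deposited FPKM equal the count over the table's gene length and the library total. Counts were tested with edgeR 4.0.16 (R 4.3.3), quasi-likelihood and robust, TMM scaling, default expression filter, group as the only term, Benjamini-Hochberg over 11103 genes, called at 0.05. The biological coefficient of variation was 7.05%. On simulated counts for 11103 genes, 96% of 2-fold and 87% of 1.5-fold changes were recovered, the latter without regard to direction, and 6.63% of the calls were false. The simulation gave every gene in both groups the same spread and changed few genes. In the data the co-culture libraries spread more than the LPS libraries and most genes were called. These rates therefore do not describe the calls made here. CPM are TMM-scaled, and SE are on the log2 scale. The length and GC fit uses splines with 5 degrees of freedom per library. Alternatives were RLE factors, library totals, DESeq2 1.42.0, limma 3.58.1 on log2(FPKM + 1) and log2(FPKM + 0.1) where the mean FPKM reached 1, no filter, a minimum of 10 counts in each library, a length trend alone, a replicate block and leaving out each library. Members at least 1.5-fold changed and called are given in every library, and at most 4 genes by smallest p from each other list; the values of 1 gene that this rule names are not reported here. Members and lists were chosen with earlier results of these data known.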

Additional observations from a re-analysis of the deposited data

How the results depend on the processing

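Of the 21 members called, 12 kept their call and direction in all 16 alternatives, and 8 of the 9 changed by at least 1.5-fold did so, all but Wipi1. Across the table, genes at least 1.5-fold higher numbered 2304, and 1085 and 1292 with limma on log2(FPKM + 1) and log2(FPKM + 0.1), which tested 9463 genes. Library totals moved the median log2 fold change of all genes from 0.00 to -0.18, and the share of calls that were higher from 49.6% to 38.3% (39.1% with either limma setting). The core median was then 0.01. Lower core members numbered 4, 6 with library totals and both limma settings, and 3 after length and GC correction. They numbered 2 with the length trend removed, which were Ulk2 and Atg5. Higher core members numbered 16, 12 with library totals, 11 with both limma settings and 19 after length and GC correction. Their number was 17 after length correction alone, and 13 to 18 when a library was left out. Core members at least 1.5-fold higher numbered 8, and 6 with library totals and both limma settings, which tested 28 of the 29. They numbered 7 with no filter, 11 after length and GC correction, 12 after length correction alone, and 7 to 8 when a library was left out. Core members at least 1.5-fold lower numbered 0, 2 with library totals and with log2(FPKM + 0.1), and 0 to 1 when a library was left out. Higher receptors numbered 1, 2 after length and GC correction, 3 after length correction alone, and 1 to 3 when a library was left out; at least 1.5-fold they numbered 1, and 2 in both trend fits. Lower receptors numbered 0, and 1 (Nbr1) with library totals, DESeq2, both limma settings, no filter and the replicate block, and 0 to 1 when a library was left out. Directions turned, counted where the main or the alternative fit called the gene, for Rb1cc1 (0.93 with length and GC, 0.64 with length removed), Atg12 (0.45 and 0.29), Pik3r4 (0.14 with length removed), Atg5 (-0.22), Atg10 (-0.15) and Vmp1 (-0.0205 with library totals, -0.0235 and -0.0238 in limma). Ulk1, Becn1, Atg14, Ambra1, Atg16l1, Nbr1 and Tax1bp1 also changed sign in some alternatives, but with no call in either fit. The cause was not tested. Same-numbered libraries deviated together at correlations of -0.04, -0.02 and 0.04, so the numbers were not taken as pairs. The replicate block called 8217 genes against 8382 and moved the calls of 2 members, Nbr1 (-0.22, adjusted p 0.0251, now called) and Vmp1 (0.15, adjusted p 0.0533, no longer called). Depth limits Optn, Wipi1 and Map1lc3a, and 3 libraries per group limit small changes.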
